A study of Mus musculus with 60 samples.

Results

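Cholesterol handling was described by 8 genes in Kupffer cell preparations of mice: Hmgcs1, Idi1, Sqle and Cyp51, which encode enzymes of cholesterol synthesis, Srebf2 and Insig1, which govern that synthesis, and Abca1 and Abcg1, which export cholesterol. The 8 were picked by gene symbol from a table of 24411 genes. Of these, 7 had enough counts to be tested among 9001 genes, and Idi1 had 0 counts in every library. The genes are set beside 59 others of sterol synthesis, sensing, uptake, storage and efflux, of which 43 were tested.

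Cells make cholesterol from acetyl-CoA through a long chain of enzymes and also take it up as lipoprotein. When sterols in the endoplasmic reticulum run low, SREBP-2, the protein of Srebf2, is released from its INSIG anchors and switches on the synthesis enzymes. When sterols are plentiful, liver X receptors (LXR) bind oxysterols and switch on the exporters ABCA1 and ABCG1. Macrophages such as Kupffer cells take in large amounts of sterol with the lipoproteins and dying cells they engulf.

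Messenger RNA was measured by 3' tag sequencing, in which a read marks the 3' end of a transcript, in 15 mice, 5 per group. The first group was Trem1-deficient and received carbon tetrachloride (CCl4), the second was wild type and received CCl4, and the third was wild type and received corn oil. All were C57BL/6J mice aged 8 weeks and male per the labels, and cells were taken 12 h after 1 injection. CCl4 is a solvent that injures hepatocytes, and was given at 2 µl per g body weight, diluted in the same oil. The receptor encoded by Trem1 amplifies inflammatory signals in myeloid cells. Which part of Trem1 the mutation removes, and in which cells, was not stated in the labels, so a level of Trem1 tags bears on the genotype where the deletion takes in the sequence that is tagged. Kupffer cells were enriched with magnetic beads by removing cells that bind CD11b and collecting F4/80-positive cells from the rest. No Trem1-deficient mice were given oil, so what CCl4 changes in Trem1-deficient cells was not measured.

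Libraries held 812320 to 2593004 counts assigned to genes. Trem1 ranged over 1.17 to 10.9 CPM (counts per 1e6 assigned to genes, with TMM scaling between libraries) in Trem1-deficient CCl4 mice, 111 to 575 CPM in wild-type CCl4 mice and 32.9 to 109 CPM in wild-type oil mice. Although every mouse is labelled male, 7 libraries, those of Trem1-deficient mice 1 and 2 and of all 5 oil mice, held 72 to 1552 Xist counts and 0 to 7 counts of Y-linked genes. The other 8 libraries held 1 to 31 Xist counts and 134 to 425 Y-linked counts. The labels give a library index number for each mouse and name no series. The numbers were grouped here into 2 series of even steps, 15, 27, 39 and on to 87, and 4, 16, 28 and on to 88. These index series divide the mice in the same way as the Xist and Y-linked transcripts. Index series and these transcripts thus cannot be told apart from treatment between the wild-type groups, and both differ within the Trem1-deficient group. Estimates with index series as a term or within 1 series are given with the results. Each wild-type group lies in 1 series, so the term is set by Trem1-deficient mice 1 and 2 against mice 3 to 5 alone. It therefore carries any other difference between those mice. Summed levels of 12 Kupffer cell markers ranged over 46866 to 66219 CPM in Trem1-deficient CCl4 mice, 4920 to 16694 CPM in wild-type CCl4 mice and 28777 to 69219 CPM in oil mice. Summed levels of 16 hepatocyte markers ranged over 2441 to 22093 CPM in Trem1-deficient CCl4 mice, 13811 to 50311 CPM in wild-type CCl4 mice and 3389 to 14938 CPM in oil mice. Summed monocyte markers (9 genes) ranged over 727 to 1667 CPM in Trem1-deficient CCl4 mice, 2060 to 4224 CPM in wild-type CCl4 mice and 525 to 1111 CPM in oil mice. Summed neutrophil markers (9 genes) ranged over 415 to 3672 CPM in Trem1-deficient CCl4 mice, 1177 to 11761 CPM in wild-type CCl4 mice and 229 to 1556 CPM in oil mice. Summed cholangiocyte markers (5 genes) ranged over 21.6 to 40.0 CPM in Trem1-deficient CCl4 mice, 40.8 to 322 CPM in wild-type CCl4 mice and 1.93 to 13.4 CPM in oil mice. The part of these shifts in any result was not tested.

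Promoters of 6 of the 8 genes were found in a RefSeq table on GRCm38.p6, as windows of 250 bases before to 50 bases after the transcript start. Sqle and Abcg1 had no entry. Both strands were searched for the core of the sterol regulatory element that SREBP-2 binds (TCACNCCA), for the CCAAT box that its partner NF-Y binds, and for the LXR element, taken as a pair of half-sites NGGTNA in the same direction with 4 bases between them. The sterol element was found in the windows of Hmgcs1, 137 bases before the start, and of Srebf2, 162 bases before it, and in 4.28% of 27025 promoters of the table. The CCAAT box was found in 5 of the 6, all but Abca1, and in 37.9% of all promoters. The LXR repeat was found in the Abca1 window alone among the 6, on the strand opposite to the gene and starting 67 bases before the start, and in 0.725% of all promoters. No match overlapped another. These 3 windows are shown because they carry the letters through which the sterol sensors are known to act. Each is written along the strand of its gene, with the sterol element (Hmgcs1, Srebf2) or the LXR repeat (Abca1) in capitals. Their places are chr13:119690101-119690400 on the plus strand for Hmgcs1, chr15:82147019-82147318 on the plus strand for Srebf2 and chr4:53159846-53160145 on the minus strand for Abca1.
Hmgcs1: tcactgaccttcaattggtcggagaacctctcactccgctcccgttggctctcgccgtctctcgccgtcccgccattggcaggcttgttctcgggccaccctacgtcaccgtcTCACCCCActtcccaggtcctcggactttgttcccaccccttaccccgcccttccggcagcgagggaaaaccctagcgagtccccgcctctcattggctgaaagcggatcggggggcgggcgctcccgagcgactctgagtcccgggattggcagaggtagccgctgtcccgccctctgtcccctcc
Srebf2: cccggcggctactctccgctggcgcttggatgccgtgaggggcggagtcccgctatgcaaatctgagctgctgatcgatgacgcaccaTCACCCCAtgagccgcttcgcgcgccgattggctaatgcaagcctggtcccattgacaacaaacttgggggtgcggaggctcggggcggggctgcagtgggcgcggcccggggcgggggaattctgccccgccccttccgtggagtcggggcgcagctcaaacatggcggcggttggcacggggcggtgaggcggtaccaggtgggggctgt
Abca1: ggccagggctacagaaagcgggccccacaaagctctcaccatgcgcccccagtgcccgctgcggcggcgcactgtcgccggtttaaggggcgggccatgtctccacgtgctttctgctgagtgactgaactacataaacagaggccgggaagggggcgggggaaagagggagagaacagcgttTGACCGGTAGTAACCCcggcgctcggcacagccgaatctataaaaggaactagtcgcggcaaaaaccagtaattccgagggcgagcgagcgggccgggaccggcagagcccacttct
A match is a stretch of letters and not a site shown to be bound. Among the 43 other pathway genes with a window, the sterol element was found in 3 (Msmo1, Stard3 and Apoe), the CCAAT box in 29 and the LXR repeat in 0. Pathway genes of a chromosome that was left out are not among the 43, though its promoters are in the share of all promoters.

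After CCl4 in wild-type mice, none of the 7 tested genes passed the threshold, and the enzymes of the same pathway did not share a direction. Fitted levels of Sqle were 9.19-fold higher and those of Hmgcs1 4.79-fold lower in wild-type CCl4 than in wild-type oil mice, both short of the threshold. Abca1 averaged 126 ± 50.8 CPM in wild-type CCl4 mice and 132 ± 50.6 CPM in oil mice (SD, n = 5 each). In these bulk preparations, fewer cells of a type and less RNA per cell cannot be told apart. The count of genes called was 0 of 7 (quasi-likelihood test of edgeR, threshold 0.05 on p adjusted after Benjamini and Hochberg), against 5.13% of all 9001 genes tested. At an unadjusted p under 0.05 it was 2 of 7 (Hmgcs1 and Sqle), against 19% of all genes, and DESeq2 called the same 2. The groups overlapped in all 7, where 6.58% of all genes did not overlap. The median log2 fold change was 0.79 over the 7 and 0.06 over all genes, and it was -0.21 over the 7 without wild-type CCl4 mouse 5.

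**Figure D1:**
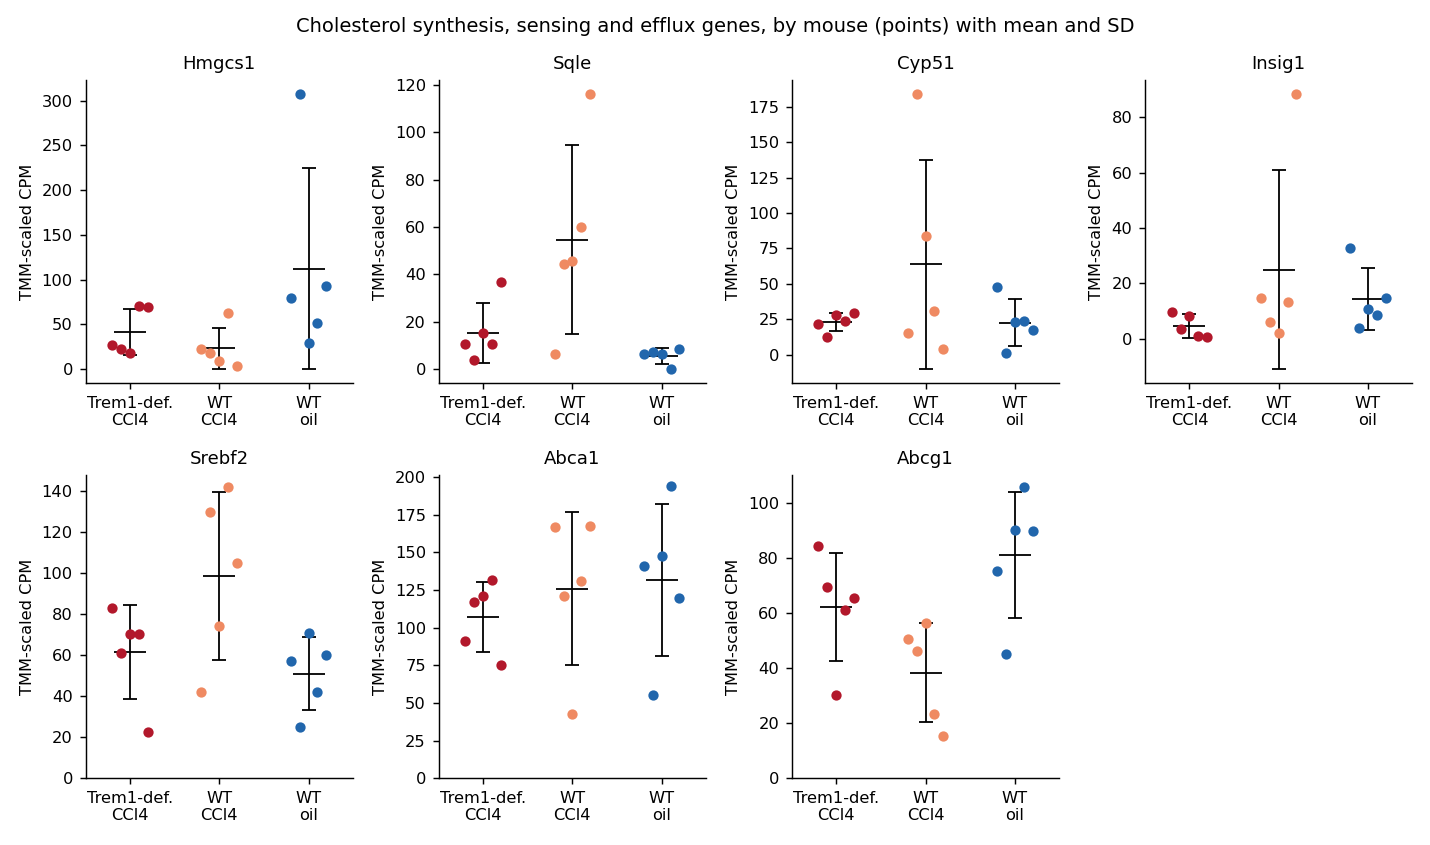
Levels of the 7 tested genes in TMM-scaled CPM (vertical axes, a separate linear scale for each gene) in Trem1-deficient CCl4, wild-type CCl4 and wild-type oil mice; points are the 5 mice of a group in order of mouse number and bars give mean and SD. The groups overlap in every panel, with single high mice such as oil mouse 2 for Hmgcs1 (308 CPM) and wild-type CCl4 mouse 5 for Insig1 (88.5 CPM).

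Hmgcs1 (ENSMUSG00000093930.2, chromosome 13, 119690379 to 119708260, plus strand, GRCm38) encodes the synthase that makes HMG-CoA, the substrate of the rate-limiting reductase. Its levels in mice 1 to 5 were 27.1, 22.7, 17.8, 70.2 and 69.1 CPM in Trem1-deficient CCl4 mice, 22.6, 18.1, 8.59, 62.4 and 2.77 CPM in wild-type CCl4 mice and 79.9, 308, 28.6, 50.9 and 92.7 CPM in oil mice. Wild-type CCl4 mouse 4 lay within the range of the oil mice, and oil mouse 2 stood far above all others. In the fit, wild-type CCl4 over oil gave a log2 fold change of -2.26 ± 0.75 (SE), with a 95% interval of -3.80 to -0.72 and an edgeR adjusted p of 0.0769. It was -3.07 with an adjusted p of 0.0242 without wild-type CCl4 mouse 4, and -1.44 with an adjusted p of 0.319 without oil mouse 2. The call was also made by DESeq2 (adjusted p = 0.0257) and without the filter on low counts (0.0384). With index series as a term the value was -3.33 ± 1.37 (adjusted p = 0.570). Trem1-deficient CCl4 mice averaged 41.4 ± 26.0 CPM and wild-type CCl4 mice 22.9 ± 23.4 CPM (SD, n = 5 each), a log2 fold change of 0.82 with an interval of -0.66 to 2.31, which was 1.63 (edgeR adjusted p = 0.321) without wild-type CCl4 mouse 4. Reads of Gm48342, which overlaps Hmgcs1 on the opposite strand, cannot be told apart from its own, since no source used here states the strand setting of the counting.

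Sqle (ENSMUSG00000022351.14, chromosome 15, 59315077 to 59331192, plus strand) encodes squalene epoxidase, the first oxygenation step on the way to the sterol ring. Its levels in mice 1 to 5 were 10.7, 4.06, 15.2, 10.6 and 36.9 CPM in Trem1-deficient CCl4 mice, 6.65, 44.3, 45.8, 60.1 and 116 CPM in wild-type CCl4 mice and 6.58, 7.51, 6.43, 0 and 8.60 CPM in oil mice. Wild-type CCl4 mice 2 to 5 exceeded every other mouse, and wild-type CCl4 mouse 1 lay within the oil range. For wild-type CCl4 over oil the log2 fold change was 3.20 ± 1.02 (SE), with an interval of 1.13 to 5.28 and an edgeR adjusted p of 0.0612. It was 3.48 with an adjusted p of 0.0316 without wild-type CCl4 mouse 1, and DESeq2 gave 3.32 with an adjusted p of 0.00129. With index series as a term it was 1.71 ± 1.67 (adjusted p = 1.00). The counts behind the oil values were low, at 0 to 18 per library. Trem1-deficient CCl4 mice averaged 15.5 ± 12.6 CPM and wild-type CCl4 mice 54.6 ± 39.7 CPM (SD, n = 5 each), a log2 fold change of -1.81 ± 0.95 with an interval of -3.75 to 0.13 (edgeR adjusted p = 0.364), and -2.43 without Trem1-deficient mouse 5.

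Cyp51 (ENSMUSG00000001467.5, chromosome 5, 4081145 to 4104746, minus strand) encodes lanosterol demethylase, a later step of the same chain. Its levels in mice 1 to 5 were 22.1, 12.5, 28.3, 23.7 and 29.3 CPM in Trem1-deficient CCl4 mice, 15.3, 184, 84.0, 30.9 and 4.15 CPM in wild-type CCl4 mice and 47.9, 1.25, 22.9, 24.0 and 17.7 CPM in oil mice. The Trem1-deficient mice lay close together, whereas the wild-type CCl4 mice held both the highest value and 1 of the lowest. On the log2 scale the fold change was 1.48 ± 0.88 for wild-type CCl4 over oil (interval -0.31 to 3.27, edgeR adjusted p = 0.383) and -1.46 ± 0.87 for Trem1-deficient over wild-type CCl4 (interval -3.24 to 0.32, adjusted p = 0.442). Without wild-type CCl4 mouse 2 these were 0.56 and -0.53 in the same order, and with index series as a term the first was 0.83 ± 1.54. Cyp51 overlaps Akap9 on the opposite strand, whose reads cannot be told apart from its own. Idi1 (ENSMUSG00000058258.14, chromosome 13, 8885501 to 8892451, plus strand), the isomerase that makes the allylic building block of sterols, had 0 counts in all 15 libraries. A count of 0 allows up to 3 counts, or 1.00 to 4.15 CPM depending on the library, for counting error only. Whether the 0 reflects the level of Idi1 or the way reads were counted there was not tested. Idi1 overlaps Gm48574 on the opposite strand.

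Srebf2 (ENSMUSG00000022463.8, chromosome 15, 82147181 to 82205379, plus strand) had 83.2, 61.3, 70.4, 70.2 and 22.9 CPM in Trem1-deficient CCl4 mice 1 to 5, 41.9, 130, 74.4, 142 and 105 CPM in the wild-type CCl4 mice and 57.3, 25.04, 70.7, 42.2 and 60.2 CPM in the oil mice. Wild-type CCl4 mice 2 to 5 lay above all oil mice, and wild-type CCl4 mouse 1 lay among them. The log2 fold change of wild-type CCl4 over oil was 0.94 ± 0.54 (interval -0.15 to 2.04, edgeR adjusted p = 0.362), 1.35 ± 0.97 with index series as a term, and that of Trem1-deficient over wild-type CCl4 was -0.68 ± 0.53 (interval -1.77 to 0.41, adjusted p = 0.598). Srebf2 hosts the microRNA gene Mir33 on the same strand and also overlaps Gm49502 there. Insig1 (ENSMUSG00000045294.11, chromosome 5, 28071363 to 28078662, plus strand) encodes the anchor that holds SREBP-2 back, and is itself a target of it. It had 9.69, 3.39, 8.26, 0.816 and 0.586 CPM in Trem1-deficient CCl4 mice, 14.6, 6.04, 1.91, 13.2 and 88.5 CPM in wild-type CCl4 mice and 32.9, 3.76, 10.7, 8.64 and 14.8 CPM in oil mice. The lowest values, in Trem1-deficient mice 4 and 5, rest on 1 count each. Without wild-type CCl4 mouse 5 the log2 fold change of wild-type CCl4 over oil turned to -0.66, against 0.79 ± 1.13 with it (interval -1.52 to 3.11, edgeR adjusted p = 0.776) and 1.76 ± 2.05 with index series as a term. Trem1-deficient over wild-type CCl4 stood at -2.40 ± 1.19 (interval -4.82 to 0.02, adjusted p = 0.329), and at -0.93 (adjusted p = 0.789) without wild-type CCl4 mouse 5.

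Abca1 (ENSMUSG00000015243.4, chromosome 4, 53030787 to 53159895, minus strand) encodes the transporter that passes cholesterol to lipid-poor apolipoprotein A-I. It had 91.2, 117, 121, 131 and 75.6 CPM in Trem1-deficient CCl4 mice, 167, 121, 42.9, 131 and 167 CPM in wild-type CCl4 mice and 141, 55.1, 148, 194 and 120 CPM in oil mice. Wild-type CCl4 mouse 3 and oil mouse 2 were the lowest. Trem1-deficient mice 1, 2 and 5 came next, below all other wild-type mice, and Trem1-deficient mice 3 and 4 lay among those. The log2 fold change of wild-type CCl4 over oil was -0.07 ± 0.43 (edgeR adjusted p = 0.960), with an interval of -0.95 to 0.82, and its sign turned with DESeq2's size factors (0.011). With index series as a term it was -0.13 ± 0.79. Trem1-deficient over wild-type CCl4 gave -0.23 ± 0.43 (interval -1.12 to 0.65, adjusted p = 0.862). Abcg1 (ENSMUSG00000024030.7, chromosome 17, 31057675 to 31117988, plus strand) overlaps Gm25447 on the same strand and encodes the transporter that passes cholesterol to mature HDL. It had 84.2, 69.4, 30.4, 61.2 and 65.6 CPM in Trem1-deficient CCl4 mice, 50.5, 46.3, 56.3, 23.5 and 15.2 CPM in wild-type CCl4 mice and 75.2, 45.1, 90.0, 106 and 89.8 CPM in oil mice. Oil mice 1, 3, 4 and 5 exceeded every wild-type CCl4 mouse, and oil mouse 2 did not. Its log2 fold change was -1.08 ± 0.56 for wild-type CCl4 over oil (interval -2.23 to 0.07, edgeR adjusted p = 0.306), -0.53 ± 1.02 with index series as a term, and 0.69 ± 0.56 for Trem1-deficient over wild-type CCl4 (interval -0.45 to 1.84, adjusted p = 0.610).

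Trem1-deficient against wild-type cells after CCl4 showed no change past the threshold in any of the 7 genes. Fitted levels were lower in Trem1-deficient cells for 5 of them (Sqle, Cyp51, Insig1, Srebf2 and Abca1) and higher for Hmgcs1 and Abcg1. The edgeR test called 0 of 7, against 2.06% of all genes tested. It also found 0 of 7 at an unadjusted p under 0.05, against 15.2% of all genes, and DESeq2 called 0. The groups overlapped in all 7, where 5.54% of all genes did not overlap. The median log2 fold change was -0.68 over the 7 and -0.03 over all genes. Within 1 index series, which leaves Trem1-deficient mice 3 to 5 and the 5 wild-type CCl4 mice, all 7 kept their sign, with values of -2.86 for Insig1, -1.36 for Sqle, -1.21 for Cyp51, -0.84 for Srebf2, -0.19 for Abca1, 0.46 for Abcg1 and 1.19 for Hmgcs1.

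Trem1-deficient CCl4 mice against wild-type oil mice, which differ in genotype, treatment and in part in index series, also gave 0 calls of 7 by edgeR, against 0.233% of all genes. The count at an unadjusted p under 0.05 was 0 of 7, against 4.66% of all genes, and DESeq2 called 0. The 2 groups overlapped in all 7, where 2.90% of all genes did not overlap. Hmgcs1 stood at -1.44 ± 0.73 (log2 fold change and SE, interval -2.93 to 0.05), Sqle at 1.39 ± 0.96 and Insig1 at -1.60 ± 1.16, each with an edgeR adjusted p of 1.00. Without oil mouse 2 Hmgcs1 stood at -0.61, and without Trem1-deficient mouse 5 Sqle stood at 0.78. Srebf2 stood at 0.27 ± 0.53, Abca1 at -0.30 ± 0.43 and Abcg1 at -0.38 ± 0.56. Cyp51 had 23.2 ± 6.67 CPM in Trem1-deficient CCl4 mice and 22.7 ± 16.8 CPM in oil mice (SD, n = 5 each), a log2 fold change of 0.02 (interval -1.74 to 1.78) that turned to -0.40 with index series as a term. This comparison shares the oil mice with the first and the Trem1-deficient mice with the second, so the 3 are not independent of each other.

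**Figure D2:**
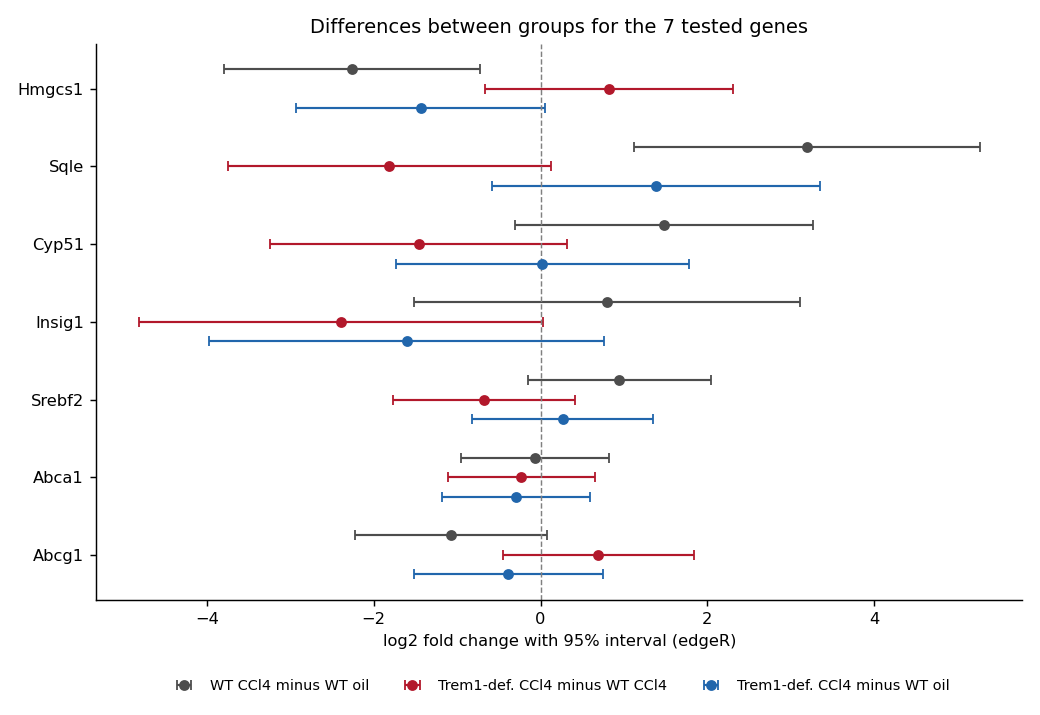
Log2 fold changes (horizontal axis) of the 7 tested genes with their 95% intervals from the edgeR fit, for wild-type CCl4 over wild-type oil (grey, top), Trem1-deficient CCl4 over wild-type CCl4 (red, middle) and Trem1-deficient CCl4 over wild-type oil (blue, bottom). The intervals of Hmgcs1 and Sqle in the first comparison lie to either side of 0, at -3.80 to -0.72 and 1.13 to 5.28, and all others include 0.

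The spread between mice was wide and differed between groups. The coefficient of variation of CPM over the 5 mice had a median over the 7 genes of 37.4% in Trem1-deficient CCl4 mice, 72.7% in wild-type CCl4 mice and 57.9% in oil mice. It was widest in the wild-type CCl4 group for 6 of the 7, all but Sqle, reaching 145% there for Insig1. Single libraries recurred at the extremes. Oil mouse 2 had the lowest level of its group for 5 of the 7 genes (Cyp51, Insig1, Srebf2, Abca1 and Abcg1) and the highest for Hmgcs1, and its Kupffer cell marker sum of 28777 CPM was the lowest of the oil group. Its marker sums for hepatocytes (14938 CPM), monocytes (1111 CPM), neutrophils (1556 CPM) and sinusoidal endothelium (2366 CPM) were the highest of that group. Wild-type CCl4 mouse 5, with 812320 counts the smallest library of all, had the highest level of its group for Sqle, Insig1 and Abca1 and the lowest for Hmgcs1, Cyp51 and Abcg1. The part of depth and cell makeup in these extremes was not tested.

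Across the 15 libraries the 8 genes did not move as 1 block. Among the 21 pairs of tested genes Spearman's rho of log2 CPM ran between -0.71 for Sqle with Abcg1 and 0.60 for Insig1 with Abca1, and was -0.40 for Hmgcs1 with Sqle and 0.59 for Sqle with Srebf2. After subtracting group means, Pearson's r was -0.51 for Sqle with Abcg1, 0.60 for Insig1 with Abca1, 0.04 for Hmgcs1 with Sqle and 0.16 for Sqle with Srebf2. Of 7841 genes averaging at least 10 CPM, those most like Hmgcs1 over the 15 libraries were Tpm3 (rho 0.90), which encodes a tropomyosin, Adgre5 (0.90), an adhesion receptor of leukocytes, and Ggps1 (0.90), which makes geranylgeranyl diphosphate from intermediates of the sterol pathway. With group means subtracted, Pearson's r of Hmgcs1 was 0.66 with Tpm3, 0.48 with Adgre5 and 0.84 with Ggps1. Oil mouse 2 was the highest mouse for Ggps1 as for Hmgcs1, at 133 CPM. Those most like Abca1 were Irf2bp2 (rho 0.85), Brwd3 (0.82) and Srrm1 (0.81), with r of 0.74, 0.82 and 0.74 for these genes after group means were subtracted. The libraries share groups, depth and cell makeup, so these values are descriptions. Some rest on few counts per library, such as 1 to 29 for Insig1 in Trem1-deficient CCl4 mice and 0 to 18 for Sqle in oil mice. The part of counting error in the weak correlations was not tested.

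The rest of the synthesis chain gave the same count. Of 22 enzymes of cholesterol biosynthesis, members included, 16 were tested, and edgeR called 0 in each of the 3 comparisons, where it called 5.13%, 2.06% and 0.233% of all genes. At an unadjusted p under 0.05 it found 3 of 16 for wild-type CCl4 over oil (19% of all genes), 1 for Trem1-deficient over wild-type CCl4 (15.2%) and 1 for Trem1-deficient CCl4 over oil (4.66%). The median log2 fold change of the 16 was 0.39 for wild-type CCl4 over oil, -0.88 for Trem1-deficient over wild-type CCl4, where 12 of 16 were below 0, and -0.06 for Trem1-deficient CCl4 over oil. Summed levels of the 22 enzymes overlapped between the groups, at 356 to 723 CPM in Trem1-deficient CCl4 mice, 577 to 885 CPM in wild-type CCl4 mice and 436 to 1102 CPM in oil mice. Sc5d, which encodes the desaturase of a late step (ENSMUSG00000032018.14, chromosome 9, 42251595 to 42264256, minus strand), had 9.02, 12.2, 20.00, 22.9 and 39.8 CPM in Trem1-deficient CCl4 mice 1 to 5, 67.8, 60.4, 100.2, 147 and 4.15 CPM in wild-type CCl4 mice and 21.6, 180.3, 79.3, 9.60 and 84.1 CPM in oil mice. Wild-type CCl4 mouse 5, the smallest library, lay below all Trem1-deficient mice, and the other 4 wild-type CCl4 mice lay above them. The log2 fold change was -1.88 ± 0.76 for Trem1-deficient over wild-type CCl4 (edgeR adjusted p = 0.220), -1.85 ± 0.76 for Trem1-deficient CCl4 over oil (adjusted p = 0.828) and 0.02 ± 0.74 for wild-type CCl4 over oil (adjusted p = 0.992). Without oil mouse 2 the last 2 were -1.24 and 0.63.

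**Figure D3:**
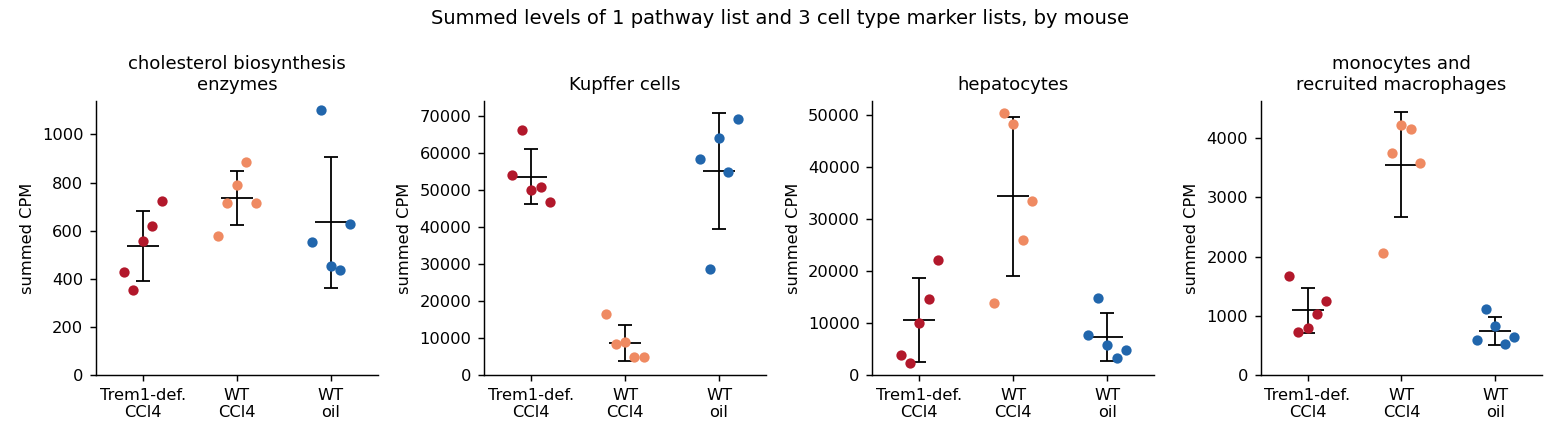
Summed levels (vertical axes) of 22 cholesterol biosynthesis enzymes, in TMM-scaled CPM, and of the markers of Kupffer cells, hepatocytes and monocytes, in CPM of the library total, by mouse (points) with the mean and SD of the 5 mice, in Trem1-deficient CCl4, wild-type CCl4 and wild-type oil mice. The enzyme sums of the 3 groups overlap, whereas the Kupffer cell sums of wild-type CCl4 mice (4920 to 16694 CPM) lie below those of both other groups.

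Calls were found among genes of sterol sensing, uptake, storage, efflux and oxysterol metabolism. For wild-type CCl4 over oil, the SE of the log2 fold change was 0.75 for Hmgcs1 and 1.02 for Sqle. It was 0.26 for Lrp1 and 0.24 for Npc2, so counts of calls do not compare the lists at equal precision. In wild-type mice after CCl4, 9 of the 43 other tested pathway genes passed the threshold. Levels of Nr1h3, Rxra, Lrp1, Npc2, Lipa and Apoe were lower and those of Insig2, Plin2 and Cyp7b1 higher than in oil mice, against 2.09% of all genes called lower and 3.04% called higher. With the 8 genes included, this came to 3 of 11 tested sensors and regulators, 3 of 12 genes of uptake and intracellular transport (median log2 fold change -0.64 over the 12), 1 of 3 of storage, 1 of 5 of efflux and 1 of 3 oxysterol and bile acid enzymes. Between Trem1-deficient and wild-type mice after CCl4, 3 of 43 passed, Nr1h3, Lrp1 and Lipa, each higher in Trem1-deficient mice, against 0.778% of all genes called higher and 1.28% called lower. They were 1 of 11 sensors and regulators and 2 of 12 genes of uptake and transport (median log2 fold change 0.75 over the 12). Between Trem1-deficient CCl4 and oil mice edgeR called 0 of 43, against 0.233% of all genes, with 5 at an unadjusted p under 0.05, against 4.66%, and DESeq2 called 0. These counts lie in libraries in which 10 of 12 Kupffer cell markers were called lower in wild-type CCl4 than in oil mice and 10 of 12 higher in Trem1-deficient than in wild-type CCl4 mice, and the part of that shift was not tested. The lists were chosen with earlier results of these data known, so the counts describe the lists and do not test them. Cyp7b1, the 1 oxysterol and bile acid enzyme called, passed the filter on low counts through the wild-type CCl4 group alone. Its call therefore adds no independent support to these counts.

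Nr1h3 (ENSMUSG00000002108.10, chromosome 2, 91184061 to 91202834, minus strand) encodes LXR alpha, the sensor that switches on Abca1 and Abcg1, and is also known as a factor of Kupffer cell identity. It had 616, 607, 646, 880 and 706 CPM in Trem1-deficient CCl4 mice, 299.8, 199, 257, 126 and 6.92 CPM in wild-type CCl4 mice and 616, 954, 887, 691 and 733 CPM in oil mice. All 5 wild-type CCl4 mice lay below all 10 others. Its log2 fold change was -2.12 ± 0.50 for wild-type CCl4 over oil (edgeR adjusted p = 0.0143) and 1.95 ± 0.50 for Trem1-deficient over wild-type CCl4 (adjusted p = 0.0451). The second call was lost without any 1 of the 5 Trem1-deficient mice or of wild-type CCl4 mice 2, 3 and 4, at adjusted p of 0.0674 to 0.113. Rxra, the partner of LXR on DNA, was lower in wild-type CCl4 than in oil mice by a log2 fold change of -1.43 ± 0.40 (adjusted p = 0.0321). It ranged over 259 to 383 CPM in Trem1-deficient CCl4 mice, 30.9 to 224 CPM in wild-type CCl4 mice and 192 to 453 CPM in oil mice, and its difference of 1.39 ± 0.40 between Trem1-deficient and wild-type CCl4 mice missed the threshold (adjusted p = 0.0607). For the LXR targets Abca1 and Abcg1 the log2 fold changes of wild-type CCl4 over oil were -0.07 and -1.08, neither past the threshold. Insig2, the second INSIG anchor, was higher in wild-type CCl4 mice (45.2 to 362 CPM) than in oil mice (21.5 to 72.6 CPM). The log2 fold change was 2.10 ± 0.62 (adjusted p = 0.0448). Insig2 ranged over 13.03 to 62.1 CPM in Trem1-deficient CCl4 mice. Its difference of -2.04 ± 0.62 between Trem1-deficient and wild-type CCl4 mice missed the threshold (edgeR adjusted p = 0.0765). The Rxra and Insig2 calls were each lost without any 1 of several mice: wild-type CCl4 mice 2, 4 and 5 and oil mice 1, 3, 4 and 5 for Rxra (adjusted p of 0.0508 to 0.0869), and wild-type CCl4 mice 2, 3 and 5 and oil mice 1, 3, 4 and 5 for Insig2 (0.0683 to 0.169). Without wild-type CCl4 mouse 5 the log2 fold change of Insig2 was 1.46.

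**Figure D4:**
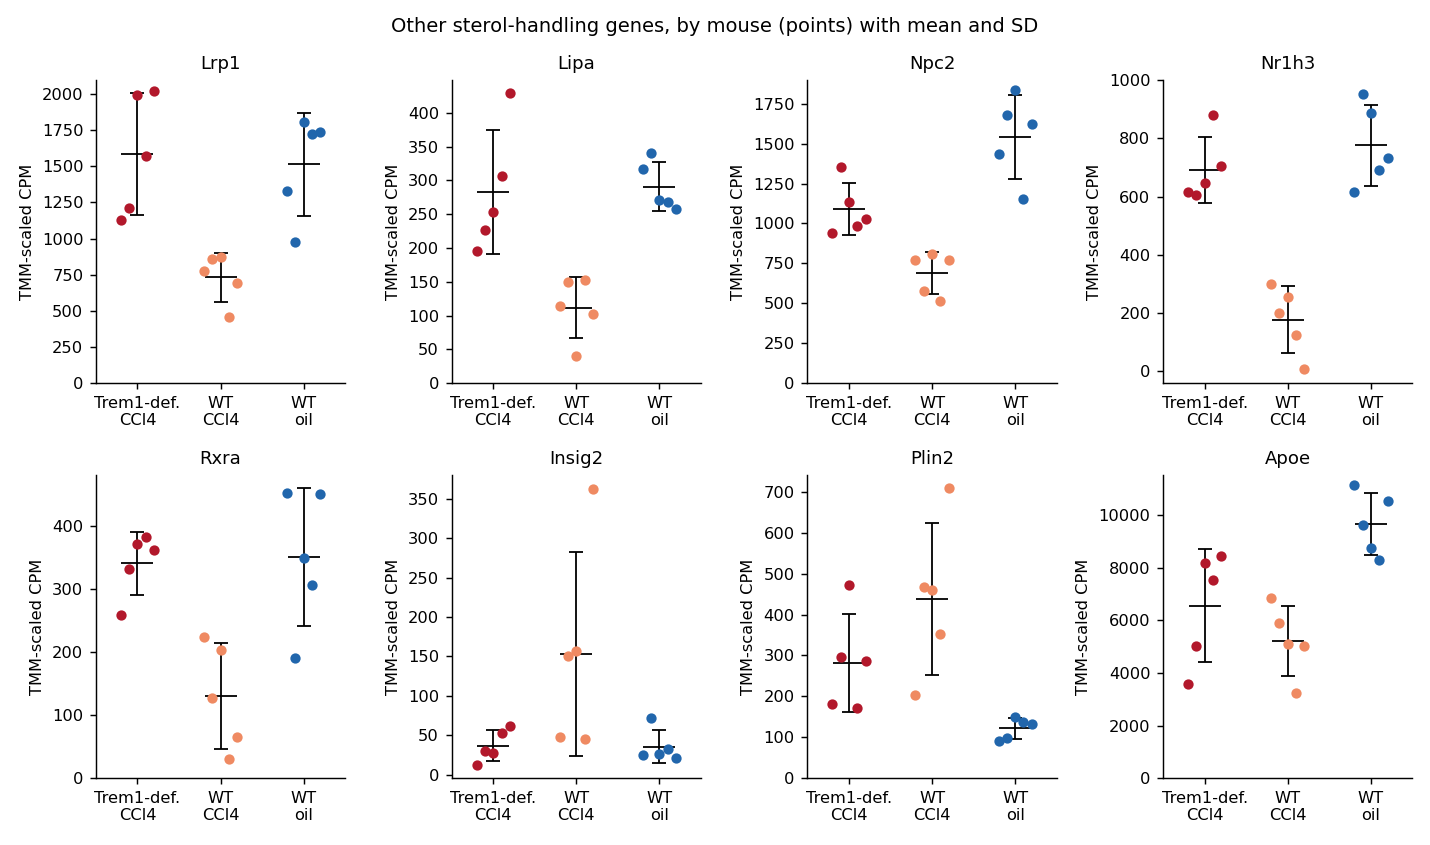
Levels of 8 other sterol-handling genes in TMM-scaled CPM (vertical axes, a separate linear scale for each gene) in Trem1-deficient CCl4, wild-type CCl4 and wild-type oil mice; points are the 5 mice of a group in order of mouse number and bars give mean and SD. All 5 wild-type CCl4 mice lie below both other groups for Nr1h3, Lrp1, Lipa and Npc2.

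Among genes of endocytic uptake and lysosomal release of cholesterol, Lrp1, Lipa and Npc2 were lowest in wild-type CCl4 mice, and Npc1 was not. Npc1 averaged 94.9 ± 56.4 CPM in Trem1-deficient CCl4, 130 ± 102 CPM in wild-type CCl4 and 47.9 ± 27.4 CPM in oil mice (SD, n = 5 each). For wild-type CCl4 over oil its log2 fold change was 1.43 ± 0.60, short of the threshold (edgeR adjusted p = 0.176). Of the 12 tested genes of uptake and intracellular transport, 10 were below 0 in that comparison and 2 above. Lrp1, an endocytic receptor for lipoprotein remnants and many other ligands, had 1127, 1210, 1994, 1569 and 2021 CPM in Trem1-deficient CCl4 mice, 776, 861, 870.4, 455 and 695 CPM in wild-type CCl4 mice and 1332, 974, 1805, 1722 and 1741 CPM in oil mice. Lipa, the lysosomal lipase that frees cholesterol from its esters, had 196, 226, 253, 306 and 429 CPM in Trem1-deficient CCl4 mice, 114, 150, 40.1, 152 and 102 CPM in wild-type CCl4 mice and 317, 341, 271, 269 and 257 CPM in oil mice. For both genes all 5 wild-type CCl4 mice lay below all others. The log2 fold change of Lrp1 was -1.05 ± 0.26 for wild-type CCl4 over oil (edgeR adjusted p = 0.0128) and 1.12 ± 0.26 for Trem1-deficient over wild-type CCl4 (adjusted p = 0.0171). That of Lipa was -1.38 ± 0.36 (adjusted p = 0.0182) for the first comparison and 1.33 ± 0.35 (adjusted p = 0.0429) for the second. The second call was lost for Lrp1 without Trem1-deficient mouse 3 (adjusted p = 0.0629) or wild-type CCl4 mouse 4 (0.0536), and for Lipa without any 1 Trem1-deficient mouse or wild-type CCl4 mouse 3 (0.0517 to 0.130). The first call of Lipa was lost without wild-type CCl4 mouse 3 (0.0558). Npc2, which carries freed cholesterol in the lysosome, was lower in wild-type CCl4 mice (517 to 807 CPM) than in oil mice (1151 to 1834 CPM), with a log2 fold change of -1.16 ± 0.24 (adjusted p = 0.00255), and ranged over 941 to 1353 CPM in Trem1-deficient CCl4 mice.

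Plin2, a coat protein of lipid droplets, had 182, 297, 471, 173 and 285 CPM in Trem1-deficient CCl4 mice, 203, 468, 459, 352 and 709.8 CPM in wild-type CCl4 mice and 92.1, 97.7, 149, 138 and 132 CPM in oil mice. Every mouse given CCl4 exceeded every oil mouse. The log2 fold change was 1.84 ± 0.36 for wild-type CCl4 over oil (edgeR adjusted p = 0.00158) and 1.21 ± 0.35 for Trem1-deficient CCl4 over oil (adjusted p = 0.293). For Trem1-deficient over wild-type CCl4 it was -0.64 ± 0.35 (adjusted p = 0.388), and those groups overlapped. Apoe, the apolipoprotein that macrophages release with exported cholesterol, was lower in wild-type CCl4 mice (3239 to 6855 CPM) than in oil mice (8294 to 11128 CPM), by a log2 fold change of -0.89 ± 0.23 (adjusted p = 0.0189), and ranged over 3593 to 8433 CPM in Trem1-deficient CCl4 mice. The Apoe call was lost without wild-type CCl4 mouse 4 (adjusted p = 0.0586), oil mouse 1 (0.0518) or oil mouse 5 (0.0523), and DESeq2 did not make it (0.0513). Cyp7b1, an oxysterol hydroxylase, had 0, 0, 0, 37.5 and 0 CPM in Trem1-deficient CCl4 mice, 25.3, 14.1, 96.4, 26.3 and 262.9 CPM in wild-type CCl4 mice and 0 CPM in all oil mice. Against a floor of 3 counts over the oil group, its mean in wild-type CCl4 mice was at least 181-fold higher. Without wild-type CCl4 mouse 5 that mean was at least 86.4-fold higher. The edgeR call (adjusted p = 0.0330) was lost without wild-type CCl4 mouse 3 or 4 or any 1 oil mouse (0.0503 to 0.0753). Since Cyp7b1 passed the filter on low counts through the wild-type CCl4 mice alone, the call adds no independent support. Hepatocytes are known to make Cyp7b1 as well, and summed hepatocyte markers were 13811 to 50311 CPM in wild-type CCl4 mice against 3389 to 14938 CPM in oil mice; their part in its level was not tested.

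With index series as a term, 1 of the 9 calls of wild-type CCl4 over oil was left, that of Apoe at a log2 fold change of -1.79 ± 0.37 (edgeR adjusted p = 0.0142). The term shifts this comparison by the difference between Trem1-deficient mice 1 and 2 and mice 3 to 5. Summed efflux genes, Apoe included, were 3948 and 5292 CPM in the former and 8652, 8508 and 10351 CPM in the latter. Summed hepatocyte markers, which share Apoa1 with the efflux genes, were 3841 and 2441 CPM against 9981, 14690 and 22093 CPM. Their part in the estimates was not tested. Among the calls lost, the log2 fold change was then -2.40 ± 0.88 for Nr1h3, -2.02 ± 0.64 for Lipa, -1.76 ± 0.72 for Rxra, -1.72 ± 0.45 for Lrp1, -1.04 ± 0.43 for Npc2, 1.47 ± 0.62 for Plin2 and 0.96 ± 1.05 for Insig2. Errors were wider than in the fit without the term for each of these, and the size of the change was smaller for Npc2, Plin2 and Insig2 and larger for the other 4. The call of Cyp7b1 was lost as well. For Trem1-deficient over wild-type CCl4, 1 of the 3 calls was left with the term, that of Lrp1 (1.35 ± 0.28), with Nr1h3 at 2.06 ± 0.54 (adjusted p = 0.0828) and Lipa at 1.56 ± 0.40 (0.0535). Within 1 index series, with 3 Trem1-deficient mice, none of the 3 was called, at 2.07 ± 0.65 for Nr1h3, 1.36 ± 0.36 for Lrp1 and 1.57 ± 0.50 for Lipa (adjusted p of 0.0762 to 0.226).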

How the data were processed

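RNA was taken from Kupffer cell preparations of 15 mice in 3 groups of 5. The labels list 60 entries, 4 sequencing lanes per mouse, and the mouse was the replicate, so p-values reflect the variation from mouse to mouse. The authors deposited 1 table of raw read counts, with a row per gene and a column per mouse. Per the submitters' processing notes, the tools were Trimmomatic, STAR 2.5.1a and Partek 6.6 and the genome build was mm10. How strands were counted and with which annotation is not given in the sources used, and no molecular identifiers are mentioned, so floors cover counting error only. The 4 tallies of unassigned reads were left out. Tags come from 3' ends, so levels carry no length correction.

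The test was that of edgeR 4.0.16 under R 4.3.3 (TMM, filterByExpr by group, robust quasi-likelihood F-test, 1 fit of 3 groups with 12 residual degrees of freedom) with Benjamini-Hochberg adjustment over 9001 genes and a threshold of 0.05. The code was tested on simulated counts. Gene levels are TMM-scaled CPM; pathway sums use the same scale and sums over cell type markers are CPM of the library total. SE is the log2 fold change over the square root of F. Alternatives were DESeq2 1.42.0, its size factors in edgeR, no filter, the mouse number as a block, index series as a term, mice of 1 index series, only the groups compared, and leaving out each mouse. All 30 pairs of libraries within groups differed by more than sampling noise (lowest chi-square over its degrees of freedom, 10.2).

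One gene of the pathway lists is not reported here and is left out of their counts. The genes and lists were chosen with earlier results of these data known. Named are the 8 genes, Trem1, every pathway gene past the threshold and the 4 with the smallest p per comparison, and for Hmgcs1 and Abca1 the 3 genes most alike. Npc1 is named as well, beside Npc2, because its estimate went the other way. Positions are from GENCODE M21 on GRCm38, promoters from RefSeq. Called genes also overlap others. On the same strand these are Gm13783 for Nr1h3 and Gm23686 for Cyp7b1. On the opposite strand they are Gm23390 for Nr1h3, Gm16217 for Lrp1 and Gm37174 for Insig2. The part of the reads of overlapping genes in the counts, those of Srebf2 and Abcg1 included, was not tested. Marker lists of sinusoidal endothelium, stellate, T and NK, B and dendritic cells had no gene called in any comparison, and 1 of 2 tested cholangiocyte markers was called for wild-type CCl4 over oil, with the CCl4 group higher.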

Additional observations from a re-analysis of the deposited data

Results flagged for a closer look

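In 5 of 51 groups of 5 mice 1 library stood apart from the other 4 by Dixon's test at the 95% level. The 51 include Cyp7b1 in oil mice, all at 0 CPM, where the test cannot be applied. Independent normal values would give about 1 in 20 groups. These CPM values hold ties at 0 and come from genes of the same libraries, so the count is a description. Among the 8 genes, Hmgcs1 was high in oil mouse 2, at 308 CPM with the next mouse at 92.7 CPM. Sqle was low in oil mouse 4, at 0 CPM with the next at 6.43 CPM. Insig1 was high in wild-type CCl4 mouse 5, at 88.5 CPM with the next at 14.6 CPM. Among the other pathway genes, Insig2 was high in oil mouse 2, at 72.6 CPM with the next at 32.6 CPM. Cyp7b1 had counts in 1 Trem1-deficient mouse only, mouse 4, at 37.5 CPM with the others at 0.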

How the results depend on the processing

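Calls among the 7 tested genes were 0 under every alternative for Trem1-deficient over wild-type CCl4 and for Trem1-deficient CCl4 over oil. For wild-type CCl4 over oil they were 2 with DESeq2, 1 with no filter on low counts, and 0 to 1 when each mouse was left out. Calls among the 67 pathway genes, of which alternatives with another filter test more than the 50 tested as reported, were 14 with DESeq2 (2 of them outside the 50) and 1 with index series as a term for wild-type CCl4 over oil (9 as reported). For Trem1-deficient over wild-type CCl4 (3 as reported) they were 6 with DESeq2 (1 outside the 50), 8 with no filter (2 outside), 1 with index series as a term, 0 within 1 index series, 0 with only these groups fitted, and 0 to 6 when each mouse was left out (1 of the 6 outside). For Trem1-deficient CCl4 over oil (0 as reported) they were 1 with no filter (Cyp7b1) and 1 within 1 index series (Apoe). Calls among all genes were 462 for wild-type CCl4 over oil, against 1084 with DESeq2, 813 with no filter, 37 with index series as a term and 302 to 759 when each mouse was left out. They were 185 for Trem1-deficient over wild-type CCl4, against 660, 563 and 77 under the same settings, 57 within 1 index series and 87 to 508 when each mouse was left out. They were 21 for Trem1-deficient CCl4 over oil, against 75 with DESeq2, 73 with no filter, 11 with index series as a term and 12 to 28 when each mouse was left out. Mice that share a number did not deviate together (correlations of -0.066 to 0.033 over 15 pairs). With the mouse number as a replicate block, 365 genes and 7 pathway genes were called for wild-type CCl4 over oil, 158 and 4 for Trem1-deficient over wild-type CCl4, 21 and 0 for Trem1-deficient CCl4 over oil, and 0 of the 7 in each.

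Signs turned for 4 estimates near 0 or resting on 1 mouse. Insig1 in wild-type CCl4 over oil ran from -0.66 to 1.36 when each mouse was left out. Abca1 in wild-type CCl4 over oil was 0.0095 with DESeq2, 0.011 with its size factors in edgeR, and -0.25 to 0.15 when each mouse was left out. Cyp51 in Trem1-deficient CCl4 over oil was -0.40 with index series as a term, -0.37 within 1 index series and -0.28 to 0.48 when each mouse was left out. Sc5d in wild-type CCl4 over oil was -1.35 with index series as a term and -0.36 to 0.63 when each mouse was left out. Of the other called genes' estimates, 130 kept their call, 65 lost it and 0 turned sign. The depth leaves oil levels of Sqle at 0 to 18 counts per library, and the smallest called difference named here, that of Apoe, was -0.89. The causes of these shifts were not tested.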

Other observations

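Ch25h and Soat2, chosen after their values were seen, had too few counts for the filter of the reported test. Ch25h, which makes 25-hydroxycholesterol, an LXR ligand, had 12, 5, 3, 2 and 1 counts in Trem1-deficient CCl4 mice 1 to 5, 8, 67, 23, 54 and 101 counts in wild-type CCl4 mice and 0, 1, 0, 0 and 0 counts in oil mice. Every wild-type CCl4 mouse had a higher level (5.32 to 139.7 CPM) than every Trem1-deficient CCl4 mouse (0.586 to 4.01 CPM) and every oil mouse. For wild-type CCl4 over oil, 8 of 16 alternatives tested Ch25h, and all 8 called it. Adjusted p was 4.7e-08 in DESeq2 and 0.000303 in edgeR without the filter. The other 6 of the 8 left out wild-type CCl4 mouse 1, the lowest of its group for Ch25h, or 1 oil mouse. There Ch25h passed the filter through the wild-type CCl4 mice alone, so these calls add no independent support. For Trem1-deficient over wild-type CCl4, 9 of 17 alternatives tested Ch25h and 3 called it: DESeq2 (3.3e-05), no filter (0.0186) and without wild-type CCl4 mouse 1. Soat2, a sterol acyltransferase of hepatocytes and intestine, had 1, 0, 48, 0 and 0 counts in Trem1-deficient CCl4 mice, 14, 1, 0, 41 and 69 counts in wild-type CCl4 mice and 0 in all oil mice. For wild-type CCl4 over oil, 8 of 16 alternatives tested Soat2 and 3 called it. These were edgeR with no filter (adjusted p = 0.00322) and without wild-type CCl4 mouse 2 or 3, the lowest of their group for it. DESeq2 did not call it (adjusted p = 0.0548).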
